A study of Arabidopsis thaliana with 8 samples.

Results

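The loci described here carry the RefSeq biotype pseudogene in the Arabidopsis thaliana assembly TAIR10.1 and are read by probe sets that several sequences share. On the Affymetrix ATH1 array a probe set name ending in _s_at marks probes that match several transcripts, and one ending in _x_at marks probes of which some match unrelated or related sequences as well. All probe sets with either ending whose platform annotation names 1 gene of that biotype were taken, whatever their signal. This gave 189 of 22746 non-control probe sets, 111 _s_at and 78 _x_at, each for a different locus. None of the 189 loci (0) also had a named _at probe set, the kind designed for 1 transcript, so every signal below may come from more than 1 copy.

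The RNA came from all tissues of Landsberg erecta (Ler) plants. The silenced parent (N1695) is homozygous for a single insert that adds a copy of CHS, the chalcone synthase gene, and the resident CHS is silenced in its presence. The other line, 15B, was obtained from it with the mutagen ethyl methanesulfonate (EMS), so it descends from plants with the same insert. The title names hog1, but no label gives the altered gene of 15B. As 15B is 1 line, its mutation and other differences between the lines cannot be told apart. Both lines grew untreated on agar (0.7%) with 1% sucrose at 22 degrees C and 18 h light, after 3 days at 4 degrees C, to growth stage 1.04, and each line has 4 arrays, called biological replicates in the design text, which gives 10 pooled plants.

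In Arabidopsis the pseudogene biotype takes in genes inside transposons as well as decayed copies of ordinary genes, and the tables used here do not say which of these a locus is. Transposon copies are normally kept silent by DNA methylation and histone modification, most densely in the heterochromatin around the centromeres. Methylation needs S-adenosylmethionine, and the product left after each transfer is removed by S-adenosylhomocysteine hydrolase. This enzyme is encoded by the gene with the symbol HOG1. Because copies of a transposon family share most of their sequence, a probe set named for 1 locus can report several. Probe and genome sequences were not used here.

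Signals of 1 array and line are given in linear units on the deposited scale, on which the trimmed mean of every array was 100.0. In their scans 2 arrays stood apart. The background was 198 on replicate 4 of the silenced parent and 77.6 to 94.3 on its other arrays, and outlier cells numbered 1353 on replicate 2 of 15B and 403 to 505 on the other 3. For actin the signal of 3' over 5' probe sets, which grows as RNA degrades, lay at 4.79 to 8.28 in the silenced parent arrays and at 4.26 to 6.47 in those of 15B (exact permutation test, two-sided, p = 0.143), and the groups overlap. Of the organ and cell division markers LHCB4.1 (light harvesting, leaf), EXPA7 and EXPA18 (root hair expansins) and PRL (DNA replication), all 4 measured of 12 listed, log2 fold changes lay between -0.13 and 0.08, with 0 calls by limma and 0 at an unadjusted p under 0.05. Their part in the results below, and that of RNA integrity, was not tested. In whole plants fewer cells that express a locus and less RNA per cell cannot be told apart.

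Taken as a class, these loci were dim in the silenced parent and in part bright in 15B. The median over the 189 probe sets was 4.0, 4.2, 4.7 and 7.2 signal units on the 4 arrays of the silenced parent and 15.0, 15.7, 16.6 and 17.9 on those of 15B. A level of 30.0 units, used below as a mark for a clear signal, was reached by 11 to 14 members per array in the silenced parent and by 64 to 73 in 15B. No member (0) reached 100 units on any array of the silenced parent, while 36 to 41 did on each array of 15B. The counts of the lines do not overlap at either mark.

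Averaged by line, 125 members lay under 10 units in the silenced parent, 52 between 10 and 30 and 12 above that. In 15B 73 lay under 10, 50 between 10 and 30, 26 between 30 and 100, 31 between 100 and 1000 and 9 over 1000. Of the summed signal per array, 0.0517% to 0.0688% came from the members in the silenced parent, and those of 15B gave 0.856% to 0.943%. Few of them carried the 15B total, since the 10 brightest in 15B made up 63.1% to 66.8% of the members' signal there. The same 10 made up 9.58% to 11.8% in the silenced parent. They were picked by their 15B signal, so part of the difference between these shares comes from that choice. The mean over the 4 arrays of 15B was 0.892% ± 0.0385 of the signal, and that of the silenced parent was 0.0588% ± 0.00720 (SD, n = 4).

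**Figure D1:**
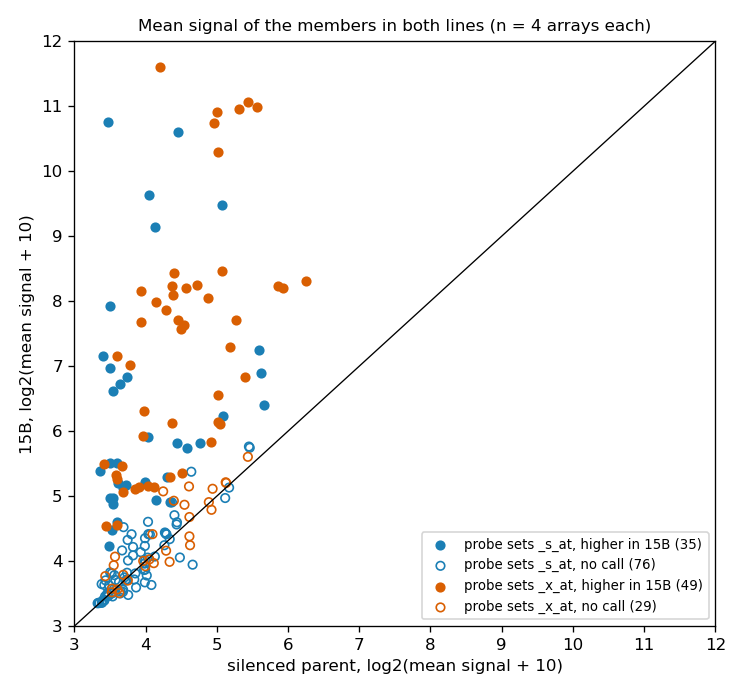
Mean signal of the 189 members in the silenced parent (x axis) and in 15B (y axis), as log2 of the mean over 4 arrays plus 10, with the line of equal signal. The 84 filled points are members called higher in 15B and lie above the line, while open points, without a call, gather along it at the dim end.

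The lines were compared in limma over all 22746 probe sets with no filter on dim ones, on log2(signal + 10), and adjusted p stands for its Benjamini-Hochberg value. By this test 84 of the 189 members (44.4%) were higher in 15B and 0 were lower, with 4 lower at an unadjusted p under 0.05. Over all probe sets 2.04% were called higher and 1.61% lower. Of the 84, 74 were higher by at least 2-fold, against 1.01% of all probe sets. The median log2 fold change (15B minus silenced parent) was 0.47 over the members, with quartiles of 0.02 and 1.76, and -0.02 over all probe sets. When only probe sets with a mean of at least 30.0 over the 8 arrays were tested, 51 of the 54 members left rose, against 3.13% of all, but members could enter that fit through their rise, so nothing is read from it. The rises spread widely in size. There were 10 under 1 on the log2 scale, 31 from 1 to 2, 28 from 2 to 4, 12 from 4 to 6 and 3 above 6.

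For all 84 the lowest array of 15B was above the highest of the silenced parent. Another 12 members had such a gap without passing the test, so 96 of 189 did not overlap upward, against 4.75% of all probe sets. The class was proposed with its rise already known, so these counts describe the rise and give no independent evidence of it. Without replicate 4 of the silenced parent 83 members rose, without replicate 2 of 15B 81, and without both 77.

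Other classes of probe set help to place these counts, although none was tested against them. Pseudogene-annotated loci with an _at probe set rose in 76 of 734 cases (10.4%), with a median log2 fold change of 0.06. Protein-coding genes read by _s_at or _x_at probe sets rose in 6 of 85 (7.06%), with a median of 0.02. Protein-coding genes with _at probe sets rose in 131 of 12358 (1.06%), with a median of -0.02. The _at class of pseudogenes contributed 0.181% to 0.241% of the signal per array in one line, the silenced parent, and 0.382% to 0.440% in the other, so the shared-sequence members held less of the signal than that class in the silenced parent and more of it in 15B.

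Members with both kinds of shared probe set rose, and the difference between the kinds was not tested. Of 78 _x_at members 49 rose (62.8%), 45 at 2-fold or above, and their median log2 fold change was 1.3. Of 111 _s_at members 35 rose (31.5%), 29 at 2-fold or above, with a median of 0.24. In the silenced parent the median of the mean signals was 10.7 for _x_at and 3.42 for _s_at members. In 15B these medians were 32.6 and 8.8. How much each copy contributes cannot be read from shared probes.

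**Figure D2:**
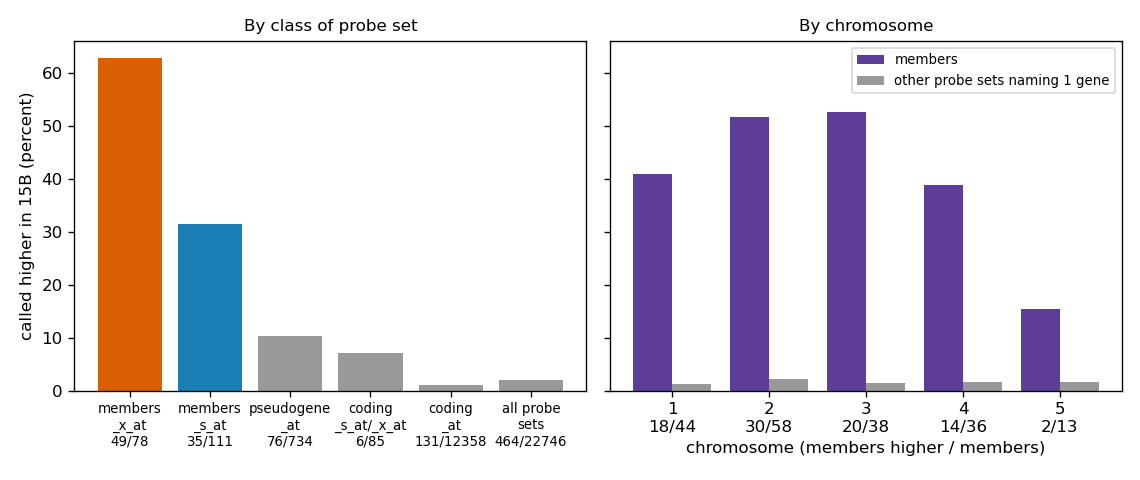
Percent of probe sets called higher in 15B, by class (left, with the number called and the number in the class under each bar) and by chromosome (right, members beside the other probe sets that name 1 gene). The _x_at members stand at 62.8%, _s_at members at 31.5% and all probe sets at 2.04%.

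The largest rise belonged to AT2G13160, read by an _x_at probe set. Its signals were 13.5, 10.8, 4.5 and 4.7 on the silenced parent arrays and 2748, 3305, 3016 and 3278 on those of 15B (a log2 fold change of 7.43 with an SE of 0.15 and a limma adjusted p = 3.56e-10). AT2G12980, an _s_at member, stood at 0.6, 0.7, 1.0 and 2.1 in the silenced parent and at 1611, 1756, 1585 and 1924 in 15B (7.28, SE 0.09). For AT2G12980 all arrays of the silenced parent are at the bottom of the scale, and for AT2G13160 they are dim. For both loci all arrays of 15B are among the brightest of the class. Signals this dim have no sure order, so the size of such a change depends on the added constant, and AT2G12980 was at 9.72 with a constant of 1 and 5.81 with a constant of 30.

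AT2G13870, an _s_at member, had silenced parent signals of 15.6, 1.5, 8.6 and 22.2, against 1475, 1403, 1507 and 1804 in 15B (6.24, SE 0.26). AT1G33130 (_x_at), the leading locus on chromosome 1 and on a chromosome arm, went from 18.1, 31.0, 18.1 and 20.9 to 1942, 1749, 1908 and 2086 (5.93, SE 0.12). AT2G12300 (_x_at) went from 22.9, 17.8, 24.1 and 19.6 to 1711, 1805, 1547 and 1742 (5.78, SE 0.08). For these 3 loci too the lines lie far apart compared with the spread of their arrays.

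On chromosome 3, AT3G30396 (_x_at) led, at 32.1, 37.4, 33.6 and 15.2 in the silenced parent and 1753, 2189, 1888 and 2098 in 15B (5.69, SE 0.17). AT3G31955, an _s_at member annotated over only 422 bases, had 2.3, 1.7, 6.3 and 15.8 against 586, 748, 794 and 1021 (5.64, SE 0.24). AT2G12240 (_x_at) had 30.5, 30.3, 35.7 and 37.4 against 2029, 2192, 1975 and 2312 (5.62, SE 0.08). AT3G31955 was lowest on replicate 1 and highest on replicate 4 of 15B, a wider spread than that of AT2G12240.

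AT2G10640 (_x_at) had 33.5, 37.1, 41.0 and 38.5 in the silenced parent and 1794, 2045, 2035 and 2234 in 15B (5.42, SE 0.08). AT2G04770 (_x_at) had 21.1, 24.3, 21.3 and 22.8 against 1302, 1199, 1192 and 1293 (5.28, SE 0.07). For both loci every array of 15B is far above every array of the silenced parent. AT1G36190 (_s_at) had 7.7, 3.1, 1.0 and 18.0 against 580, 448, 606 and 589 (5.10, SE 0.25), with replicate 2 of 15B below the other 3. AT3G33066 (_s_at) had 16.6, 21.5, 20.9 and 35.8 against 803, 733, 633 and 647 (4.43, SE 0.15). Of these 12 leading loci 7 have _x_at and 5 _s_at probe sets, 7 lie on chromosome 2, 3 on chromosome 3 and 2 on chromosome 1.

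**Figure D3:**
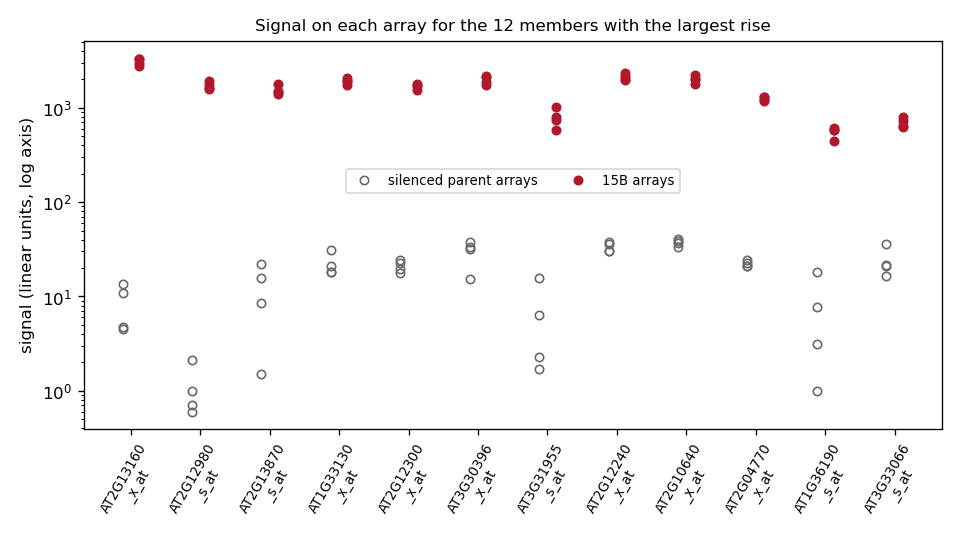
Signal on each of the 8 arrays for the 12 members with the largest rise, on a log axis, with open circles for the silenced parent and filled circles for 15B. Every array of 15B lies at 448 units or above and every array of the silenced parent at 41.0 or below, and the silenced parent arrays spread more on the log axis.

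Some loci went from almost no signal to a clear one. For 14 of the 84 risen members every array of the silenced parent was under 3 units, and for 55 every array of 15B was at 30.0 or above. AT4G28960 (_s_at), the leading locus on chromosome 4, had 2.5, 0.2, 0.8 and 1.6 in the silenced parent and 251, 205, 226 and 247 in 15B (4.42, SE 0.12). Chosen after their values were seen, AT3G30670 had 0.3 to 0.9 against 95.4 to 187, and AT2G14350 had 0.2 to 0.5 against 28.9 to 34.2. The lowest 15B value of AT2G14350 is just under the mark of 30.0. At the other end, 22 of the risen members had means under 30.0 in both lines. Their calls rest on small differences at the dim end of the scale.

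The members with the highest signal in the silenced parent rose as well. AT5G34900 (_x_at) led there and was also the leading locus on chromosome 5, at 71.3, 68.1, 64.4 and 61.9 against 256, 365, 258 and 350 in 15B (2.04, SE 0.12). AT2G06430 (_x_at) had 55.6, 59.2, 46.3 and 43.6 against 245, 340, 280 and 275 (2.27, SE 0.12). AT4G04010 (_x_at) had 40.8, 54.5, 58.8 and 38.3 against 247, 321, 294 and 301 (2.38, SE 0.13). For these 3 loci the silenced parent signal is above the dim range, so the added constant matters less: AT5G34900 was at 2.18 with a constant of 1 and 1.79 with 30.

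The next 3 in the silenced parent are _s_at members on chromosome arms. AT1G59265 had 41.0, 40.9, 37.1 and 43.1 against 72.4, 71.0, 78.7 and 76.4 (0.74, SE 0.10, limma adjusted p = 0.00156), which is under 2-fold. AT3G47310 had 34.5, 35.7, 48.4 and 38.4 against 118, 119, 91.8 and 105 (1.27, SE 0.12). AT4G22450 had 48.3, 24.0, 38.6 and 42.8 against 115, 130, 168 and 156 (1.67, SE 0.17). The lines do not overlap for any of the 6 loci of this and the preceding group.

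Among the 105 members without a call, 62 had a positive and 43 a negative log2 fold change, with a median of 0.03. Most were dim in both lines. In 101 both means were under 30.0, and in 68 both were under 10. A change of such members may lie below what these arrays show, so the lack of a call does not show that their transcripts were unchanged. By mean over the 8 arrays the brightest of them were AT4G19790 (33.7 ± 6.19 against 44.3 ± 6.84 units, log2 fold change 0.31), AT3G29120 (34.1 ± 9.03 against 43.6 ± 10.3, 0.29), AT2G10740 (33.3 ± 8.06 against 38.7 ± 8.34, 0.17) and AT1G41600 (24.9 ± 14.3 against 27.1 ± 4.4, 0.18; SD, n = 4 per line). Their arrays overlap between the lines, with limma adjusted p from 0.331 to 0.815.

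For 3 members every array of 15B was below every array of the silenced parent, against 5.78% of all probe sets. They were AT4G03970 (8.1 to 24.7 against 4.0 to 7.9), AT1G40150 (12.9 to 18.8 against 7.3 to 10.9) and AT1G43290 (3.9 to 8.2 against 2.4 to 3.2), named after their values were seen. The lowest limma adjusted p of the 3 was 0.0938, for AT4G03970 (log2 fold change -0.68). AT4G03970 passed without replicate 1 of the silenced parent, the only array of the 8 whose omission gave a member called lower.

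Risen members lay on all 5 chromosomes. They numbered 18 of 44 on chromosome 1 (40.9%), 30 of 58 on chromosome 2 (51.7%), 20 of 38 on chromosome 3 (52.6%), 14 of 36 on chromosome 4 (38.9%) and 2 of 13 on chromosome 5 (15.4%). The other probe sets naming 1 gene rose in 1.29% to 2.1% on these chromosomes. On chromosome 5 AT5G34900 and AT5G34895 were the 2 risen members, and they are neighbours. The 13 members there had a median silenced parent signal of 2.38 units and 1 of them reached 30.0 in 15B, so little of that chromosome was measured with a clear signal.

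Most members, 148 of 189, lie within 3 Mb of a centromere in the Columbia assembly. Their position in Ler was not analysed here. Of these 67 rose (45.3%), and of the 41 on chromosome arms 17 rose (41.5%), with medians of 0.44 and 0.49 on the log2 scale. With this window the shares and medians of the 2 places are close, and their difference was not tested. Within 2 Mb of a centromere 47 of 107 members rose, and within 5 Mb 77 of 168 did. Shared probes may also read copies at other places, so these shares do not locate the transcripts. Protein-coding probe sets in the same places rose in 1.85% and 1.02% of cases. By kind of probe set, 39 of 64 _x_at members around the centromeres and 10 of 14 on the arms rose, and 28 of 84 and 7 of 27 _s_at members did.

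Protein-coding genes near the members were examined next. Within 5 loci of a risen member, 62 protein-coding genes had a probe set, of which 1 rose and 2 fell, with a median log2 fold change of -0.05. Next to members without a call, 2 of 99 rose and 1 fell. Over all 12224 protein-coding loci with a probe set, 136 rose (1.11%) and 196 fell. The 1 riser beside a risen member was MSRB5 (AT4G04830), a methionine sulfoxide reductase, which was at 156 ± 26.5 in one line, the silenced parent, and at 244 ± 44.3 in the other (SD, n = 4 per line, log2 fold change 0.61, limma adjusted p = 0.0470).

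By annotated length, risen members were compared with the others without a test. Risen loci had a median length of 2690 bases (quartiles 2078 and 4073) and those without a call 2201 (883 and 3933). Among the 39 loci of up to 1000 bases 8 rose (20.5%), among 29 of 1000 to 2000 bases 11 rose (37.9%), among 75 of 2000 to 4000 bases 43 rose (57.3%), and among 46 longer ones 22 rose (47.8%). Lengths are those of the annotation, in which a short locus may be a fragment of a copy.

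Several _x_at members occur as neighbours and rose in pairs. In gene order 10 pairs of _x_at members lie next to each other or with 1 locus between them. In 8 of these pairs both members rose, in 1 pair 1 member rose and in 1 pair neither did. Of all 78 _x_at members 62.8% rose, so nothing is read from this count about neighbours. Several of the pairs hold a member of the set of long loci described below, so the 2 descriptions share probe sets. This grouping into pairs was chosen after the values were seen, and no test was made of it. In AT3G47260 and AT3G47270, the log2 fold changes were 3.94 and 1.39, and in AT2G14130 and AT2G14140 they were 3.73 and 1.35. In AT2G02210 and AT2G02200 they were 3.56 and 0.95, and in AT1G32840 and AT1G32830 they were 3.72 and 1.26.

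The other risen pairs were AT3G30440 and AT3G30450 (3.62 and 0.86), AT2G04980 and AT2G04970 (2.45 and 1.02), AT5G34900 and AT5G34895 (2.04 and 1.03) and AT2G12240 and AT2G12250 (5.62 and 2.11). Partners thus rose by different amounts, and the smaller value of 6 of these pairs belonged to a member with a 15B mean under 30.0. The call of AT3G30450 is close to the threshold (limma adjusted p = 0.0491). The pair AT2G05870 and AT2G05890 had values of 0.02 and -0.16 with no call, and in the remaining pair AT3G32000 rose (1.17) while AT3G32020 did not pass (0.92, limma adjusted p = 0.102).

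**Figure D4:**
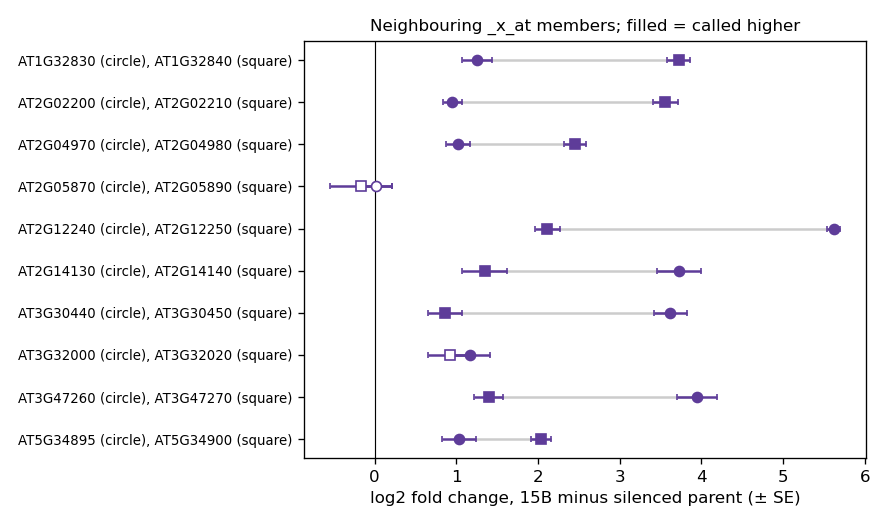
Log2 fold change (15B minus silenced parent) with its SE for the 10 pairs of neighbouring _x_at members, filled where called higher. In 8 pairs both symbols are filled and lie apart, as for AT3G47260 at 3.94 and AT3G47270 at 1.39.

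Most of a set of long loci of nearly equal length rose, and those with _x_at probe sets had similar levels in 15B. Of 12 members annotated over 4600 to 4750 bases, a window chosen after the values were seen, 10 rose, among them all 9 with _x_at probe sets. Of all _x_at members 62.8% rose, of all members 44.4%, of members over 4000 bases 47.8% and of all probe sets 2.04%. Whether length plays a part was not tested. These 9 are AT3G44500, AT3G47260, AT2G15140, AT2G14130, AT2G02210, AT2G04980, AT4G04010, AT2G06430 and AT5G34900. They lie on 4 chromosomes, 7 around centromeres and 2 on arms. Their signals ranged from 2.7 to 71.3 over the silenced parent arrays and from 173.5 to 365 over those of 15B, with log2 fold changes of 2.04 to 4.22. Of the 3 _s_at members of this length AT2G14010 rose (1.25), while AT4G07760 (-0.02) and AT3G43350 (-0.13) did not pass and had means under 3 units in both lines.

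Within 15B most of these 9 loci, from the window chosen after the values were seen, also moved alike. Replicate 1 was the lowest of the 4 arrays of 15B for all 9, and replicate 2 was the highest for 7 and replicate 4 for 2. Among the other 42 risen members with a mean of at least 30.0 over the 8 arrays, replicate 1 was the lowest for 10 and the highest for 15. Over the 4 arrays of 15B the median Pearson correlation of deviations was 0.78 over the 36 pairs of these loci, from -0.03 to 0.98. Over the 861 pairs of the other 42 the median was 0.08. Each value rests on only 4 arrays, which share their scaling, and these probe sets may read the same transcripts. By silenced parent mean, most of the 9 and of the other 42 were under 30.0. They reached 30.0 over the 8 arrays through their 15B signal, so nothing is read from these values about loci of this length. Over all 8 arrays, where the dim silenced parent values enter, the median over the 36 pairs was 0.15.

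**Figure D5:**
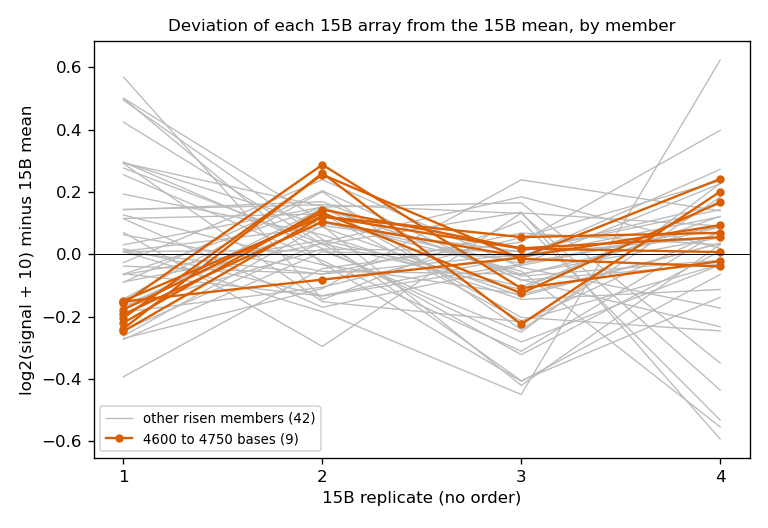
Deviation of each 15B array from the 15B mean on the log2(signal + 10) scale, with 1 line per risen member with a mean of at least 30.0, joined only to show which points belong together. The 9 loci of 4600 to 4750 bases all lie below 0 on replicate 1, while the other 42 risen members spread to both sides of 0 there.

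Correlations of deviations could be described for the 54 of 189 members with a mean of at least 30.0 over the 8 arrays. Only 12 members had a silenced parent mean that high, so most of the 54 are dim on the 4 arrays of that line, and nothing is read from these values about the class. Over the 54 the median correlation of deviations from the line means over 8 arrays was 0.02 (quartiles -0.29 and 0.34, 1431 pairs). For other probe sets in the same range of signal it was 0.00 (quartiles -0.32 and 0.32). Correlations above 0.8 made up 1.96% of the members' pairs and 1.82% of other pairs. Pairs on the same chromosome (median 0.01, 349 pairs) and on different ones (median 0.02, 1082 pairs) are given side by side without a test. The 8 pairs within 10 loci of each other had a median of 0.41, from -0.11 to 0.77.

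The 2 highest correlations are given as values only. Their loci lie on different chromosomes or far apart, but so do nearly all pairs, since 1423 of 1431 were farther than 10 loci apart or on other chromosomes. AT2G15140 and AT2G02210 correlated at 0.95 over the 8 arrays. AT2G15140 had 3.6, 2.7, 10.2 and 4.5 in the silenced parent and 173.5, 211, 196 and 194.5 in 15B (log2 fold change 3.76, SE 0.16). AT2G02210 had 12.8, 13.4, 25.7 and 13.3 against 256, 317, 292 and 314 (3.56, SE 0.15), and in both the third replicate of the silenced parent is above the others of its line. AT4G04010 and AT2G14130 followed at 0.93, the latter at 4.0, 19.5, 25.6 and 6.1 against 236, 308, 294 and 297 (3.73, SE 0.27). All 4 are among the 9 loci of similar length.

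Replicate arrays of 15B had a higher median coefficient of variation for the members, a description with no test. For the 66 members with a 15B mean of at least 30.0 it was 15.7% (quartiles 10.5% and 20.4%), and for the 13735 other probe sets it was 11.3% (7.41% and 16.5%). These values describe the spread between plant pools and arrays together.

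Of 25 genes of DNA methylation and transposon silencing listed for comparison, among them the methyltransferase genes MET1 and CMT3, the chromatin remodeller gene DDM1 and the hydrolase gene SAHH1, 1 had a named probe set. This was DME, a DNA demethylase gene, with log2 fold changes of -0.21, -0.15 and -0.13 in its 3 probe sets, 0 calls by limma and 0 at an unadjusted p under 0.05. The other 24 were not analysed here.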

How the data were processed

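The authors deposited intensity values on a linear scale for 22810 probe sets on 8 arrays. How probes were summarised is not given in the sources used here, nor is any background correction. All arrays had the same trimmed mean, so total signal per array cannot be compared. The file holds no detection calls, so a dim value has no sure order. After leaving out 64 control probe sets, log2(value + 10) was fitted with limma 3.58.1 in R 4.3.3 (lmFit, eBayes with trend), two-sided, Benjamini-Hochberg over 22746 probe sets, threshold 0.05. No filter on dim probe sets was used, since a mean over both lines admits members through the line where they are high. With a filter of 30.0 units 54 members remained. The fit was tested on simulated data.

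Names come from GEO's platform annotation (13513 name 1 gene, 503 several, 8730 none) and were matched through Entrez numbers to RefSeq (13436). Correlations are Pearson's, of deviations from line means. The number of arrays limits the precision. No pair of arrays shared more than 0.969% of its values.

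Members and lists were chosen with earlier results of these data known. Named are the 12 largest rises, up to 6 largest falls, the 6 brightest members in the silenced parent, the 4 brightest without a call, the leading member of each chromosome, up to 4 genes with an additional _at probe set (none were found) and the 2 most correlated pairs.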

Additional observations from a re-analysis of the deposited data

Results flagged for a closer look

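In 6 of 70 sets of 4 values examined, 1 array stood apart from the other 3 of its line, which chance does in about 1 set in 20. On replicate 4 of the silenced parent, the background was 198 (77.6 to 94.3 in the others) and the noise 13.5 (3.91 to 5.15). Replicate 2 of 15B had 1353 outlier cells (403 to 505) and a signal of 448 for AT1G36190 (580 to 606). AT2G02210 was at 25.7 on replicate 3 of the silenced parent (12.8 to 13.4), and AT1G41600, which has no call, at 20.5 on replicate 1 of 15B (28.7 to 29.6).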

How the results depend on the processing

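With all 189 members tested, 82 to 85 rose under the other scalings, constants, variance models, array weights and the replicate block, 77 without both arrays that stood apart (an alternative chosen after seeing the data) and 78 at an adjusted p under 0.01. In every fit of all members 75 rose at an adjusted p under 0.05. Filters tested fewer members, and members could enter those fits through their rise, so nothing is read from these counts and medians. With a filter of 30.0 units on the mean, 54 were tested and 51 rose (16 _s_at, 40 pericentromeric, 11 on arms, median log2 fold change 3.23). Of all probe sets tested with that filter 3.13% rose. With 60 units 38 were tested and 38 rose (9 _s_at, 29 _x_at, 30 pericentromeric, 8 on arms, median 3.73). The median over all members was 1.09 with a constant of 1 and 0.21 with 30. Over all probe sets 271 were higher and 125 lower at an adjusted p under 0.01, and 206 were lower without both arrays that stood apart. Leaving out 1 array at a time gave 78 to 83 members higher, 0 to 1 lower (AT4G03970), 340 to 444 of all probe sets higher and 188 to 424 lower. The lowest count of lower ones came without replicate 3 of the silenced parent. AT1G41600, never called, ranged from -0.10, without replicate 1 of the silenced parent, to 0.41. Same-numbered arrays correlated in their deviations at 0.13, -0.03, 0.02 and 0.05. Whether the number pairs them cannot be told from these values. With the replicate block 82 members and 483 of all probe sets were higher and 366 lower. The cause of these shifts was not tested, except that filters and left-out arrays reduce what is tested.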
